A study of Mus musculus with 6 samples.

Results

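The interferon-inducible p200 family was followed in splenocytes of wild-type and Top3b-KO mice. Its members here were 10 symbols given by name, which are Ifi203, Ifi204, Ifi206, Ifi207, Ifi208, Ifi209, Ifi211, Ifi213, Mndal and Aim2. All 10 were present among the 56413 symbols of the count table, and all 10 passed the filter on low counts that left 18716 genes for testing. The libraries came from fresh total splenocytes, 3 from wild-type (WT) mice and 3 from mice labelled Top3b-KO, a knockout of the gene for topoisomerase III-beta. The sources used here name no treatment, strain, age or Top3b allele, nor whether the 3 libraries of a genotype came from separate animals. They also describe a pair of library kits and give read lengths that differ, without saying which applies to which library. The study asks what Top3b does against tumours and disturbed immunity, and its maps of R-loops were not analysed here.

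Most p200 proteins, also called HIN-200 or PYHIN proteins, have a HIN domain that can bind DNA. Most carry a pyrin domain at the other end that recruits partner proteins. Interferons induce their genes, and some members act as sensors of DNA. Aim2 is the best understood of them. It binds double-stranded DNA in the cytosol and, through the adaptor Pycard (ASC), activates caspase-1 in an inflammasome. Ifi204, which RefSeq also lists as Ifi16 and p204, is known for signalling from DNA to interferon genes through Sting1.

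The genes lie side by side on chromosome 1. Along the chromosome the order in the GENCODE M21 annotation was Aim2, Ifi206, Ifi214, Ifi213, Ifi209, Ifi208, Ifi207, Ifi204, Ifi203-ps, Mndal, Ifi211, Ifi203, Ifi202b and Ifi205. Of these 14 neighbours, Ifi214, Ifi203-ps, Ifi202b and Ifi205 are not among the 10. Aim2, Ifi209 and Ifi208 are transcribed from the plus strand and the other 7 members from the minus strand.

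Most members share a short motif just before their start. The letters GAAANNGAA, the core of the interferon-stimulated response element to which interferon-activated factors bind, were searched on both strands from 250 bases before to 50 bases after each RefSeq start. They were found for 7 of the 9 members that have a promoter in the RefSeq table, against 9.76% of 27025 genes (8.56% of 32851 promoters of the same length). The members with a match were Ifi203, Ifi206, Ifi207, Ifi208, Ifi211, Ifi213 and Mndal. No match was found in these windows for Aim2 and Ifi209, and Ifi204 is not in the table. The gamma-activated site, searched as TTCNNNGAA, was found for 0 of the 9 members and for 9.55% of genes. The stretches of 41 bases around the forward matches are shown because they carry this shared feature, with the core in capitals, 5′ to 3′ on the gene's own strand (RefSeq, GRCm38.p6).
Ifi203 (chr1:173942503-173942543, minus strand): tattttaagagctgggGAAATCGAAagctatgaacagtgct
Mndal (chr1:173880199-173880239, minus strand): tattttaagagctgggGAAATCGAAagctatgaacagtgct
Ifi211 (chr1:173913059-173913099, minus strand): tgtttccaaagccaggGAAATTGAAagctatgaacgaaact
Ifi207 (chr1:173741826-173741866, minus strand): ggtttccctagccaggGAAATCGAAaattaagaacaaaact
Ifi208 (chr1:173673591-173673631, plus strand): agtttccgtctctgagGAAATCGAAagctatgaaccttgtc
Ifi213 (chr1:173599321-173599361, minus strand): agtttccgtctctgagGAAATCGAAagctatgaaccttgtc
Ifi206 (chr1:173491334-173491374, minus strand): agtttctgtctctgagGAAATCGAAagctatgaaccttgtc

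The core stood between 35 and 73 bases before the start in these 7 promoters, nearest in Ifi203 and farthest in Ifi213. The stretches of Ifi203 and Mndal were identical over all 41 bases, and so were those of Ifi208 and Ifi213. The 7 matches are therefore not separate occurrences, unlike most of the genes they are set beside. Ifi206, Ifi208 and Ifi213 each matched Ifi203 at 28 of 41 bases without gaps, Ifi207 at 27 and Ifi211 at 30. The core itself was the same in all but Ifi211. A match of letters is a description of the promoter and not a measurement of binding.

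The members also resemble each other in their products and transcripts. Proteins translated from the annotated coding sequences ranged from 354 residues for Aim2 to 978 for Ifi207. Over the 45 pairs of members, identical residues made up a median of 33.1% of the shorter protein, from 16.7% for Ifi213 and Aim2 to 93.7% for Ifi208 and Ifi213. The ends did not always resemble the same relative. Ifi203 and Mndal were 92.9% identical over the first 85 residues and 30% over the last 200. Mndal and Ifi211 were 47.1% identical over the first 85 residues and 81.0% over the last 200. Ifi204 and Ifi211 had the most similar first 85 residues of any pair, at 98.8%. Aim2 stood apart at that end, with 15.3% to 28.2% identity to the other members. Ifi208 and Ifi213 stood apart over the last 200 residues. They were 92% identical to each other there and 0.5% to 7.5% identical to the other members. Domains were not searched for, so a HIN domain is not shown for Ifi208 or Ifi213.

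Such likeness bears on the counts, since a read from an identical stretch cannot be placed by its sequence. The sources used here do not say how reads with several matches were counted. Each member's longest transcript was cut into windows of 100 bases, close to the shorter of the stated read lengths. Every window of Aim2 was unique to it. Of the windows of Ifi211, 56.9% also occurred in another family gene, mostly in Ifi205 (37.2%) and Ifi204 (19.6%), and 6.41% in Mndal. The shared portion was 17.9% for Ifi209, all of it with Ifi214, and 16.8% for Ifi204. It was between 0.267% and 8.23% for Ifi203, Ifi206, Ifi207, Ifi208, Ifi213 and Mndal. The longest Ifi213 transcript is a retained intron, and over its longest coding transcript the portion was 6.12%. Another 5.39% of Ifi206 windows occurred in the pseudogene Gm18752. Mndal and Ifi203 overlap on the same strand, but only 37 exonic bases belong to both. The counts of Ifi211, Ifi209 and Ifi204 are therefore uncertain. These portions do not bound the error, since 5.60% of the windows of the far more abundant Mndal occurred in Ifi211.

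**Figure D1:**
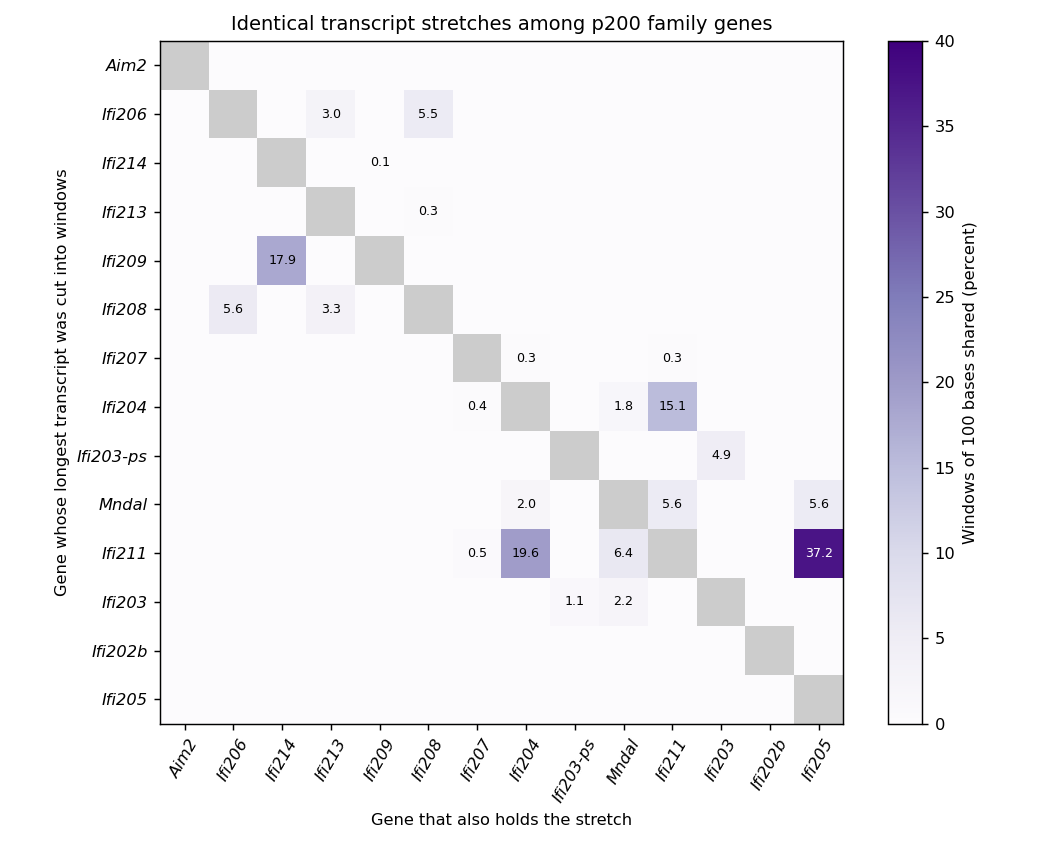
Percent of 100-base windows of each gene's longest transcript (rows) that also occur in a transcript of another family gene (columns), with genes in chromosome order and the gene itself in grey. Ifi211 shares 37.2% with Ifi205, Ifi209 shares 17.9% with Ifi214, and the Aim2 row is empty. Rows use the longest transcript only, which for Ifi213 is a retained intron, and columns use every transcript of a gene.

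Library totals ranged from 9941014 to 25473404 counts, with the smallest in Top3b-KO replicate 3. The 10 members together held between 13610 and 32391 counts per library, and the smallest single count was 33, for Ifi211 in Top3b-KO replicate 3. Levels are given in CPM, the usual depth-scaled count, after scaling by TMM factors, and errors are SD over 3 libraries. Top3b itself was at 91.0 ± 4.06 CPM in WT, against 49.8 ± 1.66 CPM in knockouts (n = 3; edgeR adjusted p 5.78e-06). Knockout libraries thus retained Top3b counts, which a count per gene cannot assign to exons inside or outside the deletion. Every listed marker of 10 splenic cell types, from B cells to erythroid cells, had counts in every library. In bulk RNA, fewer cells of a type and less RNA per cell cannot be told apart.

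Splenocytes expressed the members at very different levels. Scaled to the longest transcript, Mndal was highest, at 143 ± 5.94 CPM per kilobase in WT and 145 ± 7.55 in Top3b-KO (SD, n = 3). Ifi203 followed at 91.8 ± 6.45 and 95.7 ± 4.36, and Ifi209 at 85.5 ± 11.8 and 91.3 ± 4.20. A middle group held Ifi213 (33.4 ± 4.58 in WT), the inflammasome sensor Aim2 (28.0 ± 1.41) and Ifi206 (24.6 ± 2.62). Ifi208 was at 10.7 ± 1.39 CPM per kilobase in WT, the DNA sensor Ifi204 at 6.23 ± 1.12, Ifi207 at 5.09 ± 0.298 and Ifi211 at 2.18 ± 0.259. The order depends on the lengths used, since a count per gene does not show which transcripts were expressed. By CPM alone Ifi203 lay above Mndal in every library (means of 344 and 290 in WT). Their longest transcripts have 3754 and 2026 bases.

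This order held in all 6 libraries except for Ifi203 and Ifi209, which kept it in 5, with a ratio between 0.996 and 1.2. Ranges over the 6 libraries overlapped for Ifi203 and Ifi209 (87.2 to 100.5 and 74.2 to 97.8 CPM per kilobase), for Aim2 and Ifi206 (26.5 to 29.3 and 21.9 to 28.0) and for Ifi204 and Ifi207 (5.12 to 7.36 and 4.57 to 5.50). Within libraries, however, Aim2 lay above Ifi206 in 6 of 6, by 1.00 to 1.28 times, and Ifi204 above Ifi207 in 6 of 6, by 1.08 to 1.44 times. Ifi213 exceeded Aim2 by 1.06 to 1.43 times. Steps elsewhere in the order were larger. Mndal exceeded Ifi203 by 1.5 to 1.62 times, Ifi209 exceeded Ifi213 by 2.36 to 2.65 times, and Ifi206 exceeded Ifi208 by 1.79 to 2.59 times. The corresponding ratio was 1.42 to 2.39 for Ifi208 over Ifi204 and 1.96 to 2.94 for Ifi207 over Ifi211. As a part of the members' summed counts, Ifi203 made up 27.5%, Ifi209 23.7% and Mndal 22.9% on average over the 6 libraries, and Ifi211 0.298%.

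**Figure D2:**
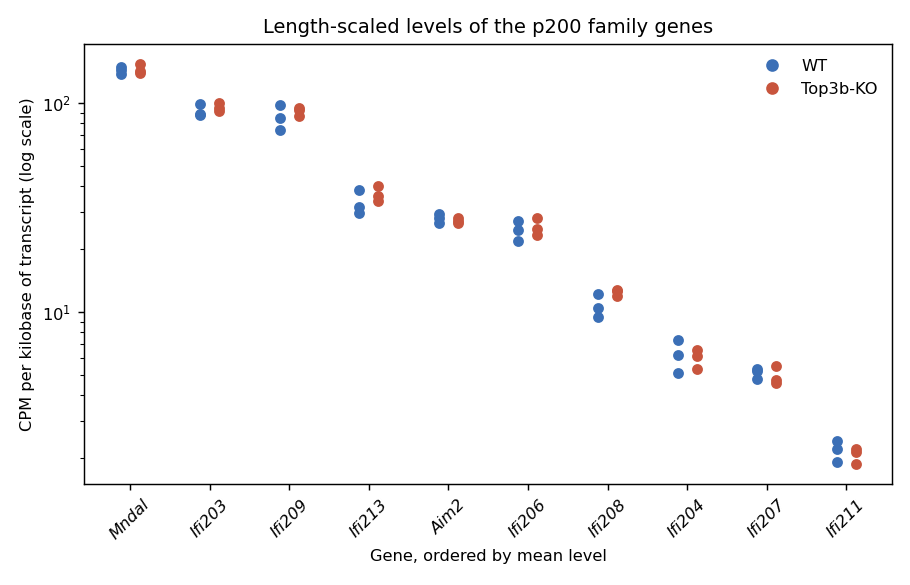
Level of each member in every library, in CPM per kilobase of its longest annotated transcript on a log axis, ordered by the mean. Mndal sits between 137 and 154 in all 6 libraries and Ifi211 between 1.87 and 2.42, and WT and Top3b-KO points lie side by side for every gene.

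The comparison of genotypes asked whether loss of Top3b goes with a change in these interferon-induced genes. No member was past the threshold of 0.05 on the Benjamini-Hochberg adjusted p of edgeR's quasi-likelihood fit. That is 0 of 10 members, where 2 of 18716 genes passed (0.0107%). At an unadjusted p under 0.05 there was 1 member, Ifi208, where 5.52% of all tested genes lay. By DESeq2 0 members passed and 1 was at an unadjusted p under 0.05, and limma-voom gave the same counts. For 0 of 10 members did all 3 Top3b-KO libraries lie above all 3 WT libraries, as they did for 5.39% of tested genes, and for 0 did they all lie below, as they did for 5.63% of tested genes. Member log2 fold changes of Top3b-KO over WT ran from -0.061 for Ifi207 to 0.22 for Ifi208, with a median of 0.032 beside -0.0029 over all tested genes. They were above 0 for 6 of 10 members and for 49.1% of all tested genes.

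The most abundant members were close between genotypes. Ifi203 was at 334, 328 and 372 CPM in WT, against 355, 345 and 377 CPM in knockouts. The genotypes overlapped, with the highest value of each in replicate 3. Its log2 fold change was 0.059 (SE 0.069, adjusted p 0.96 by edgeR). Mndal, the myeloid nuclear differentiation antigen-like gene, was at 291, 278 and 302 CPM in WT, against 288, 283 and 312 CPM in knockouts. It had the difference nearest to 0 among the members, a log2 fold change of 0.017 (SE 0.066, adjusted p 0.98 by edgeR). With Ifi203 and Mndal summed into 1 feature, an alternative added after the data were seen, the log2 fold change was 0.041 (SE 0.068). Ifi209, listed in RefSeq also as Pyhin1, was at 255, 290 and 336 CPM in WT, against 298, 317 and 326 CPM in knockouts. The lowest and the highest value were both WT libraries, so the knockout libraries lay inside the WT range (log2 fold change 0.094, SE 0.084).

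Aim2, the sensor of the DNA-activated inflammasome, had the narrowest range over the 6 libraries on the log2 scale (0.15). It was at 79.7, 75.3 and 83.3 CPM in WT, against 75.4, 77.6 and 79.8 CPM in knockouts. All 3 knockout values lay within the WT range. Its log2 fold change was -0.035 (SE 0.069), and the 95% confidence interval of the Top3b-KO to WT ratio ran from 0.882 to 1.08. As a part of the members' summed counts, Aim2 was 6.71%, 6.23% and 6.10% in WT, against 5.97%, 6.05% and 5.80% in knockouts. These values did not overlap between genotypes, while the CPM of Aim2 did. Aim2 was the only member whose share did not overlap. By CPM, 5.63% of all tested genes lay wholly lower in knockouts and 5.39% wholly higher. CPM is a measure unlike a share of the family, for which no such background is given. The difference in the Aim2 share was not tested, and it reflects the level of the other members as well as that of Aim2.

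The DNA sensor Ifi204 had the widest such range (0.52). Its values were 11.8, 14.3 and 16.9 CPM in WT, against 12.2, 15.1 and 14.2 CPM in knockouts. The knockout values again lay within the WT range, and the log2 fold change was -0.052 (SE 0.13, adjusted p 0.98 by edgeR). Ifi211, which shares most of its sequence with relatives, was at 4.33, 3.41 and 3.96 CPM in WT, against 3.81, 3.96 and 3.34 CPM in knockouts. Its log2 fold change of -0.054 had the widest error of the family (SE 0.18), on counts between 33 and 100. Ifi207 was at 16.3, 17.8 and 18.2 CPM in WT, against 16.2, 15.6 and 18.8 CPM in knockouts (log2 fold change -0.061, SE 0.11). These 3 members and Aim2 were the 4 with a value below 0, and the genotypes overlapped for each.

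Ifi206, Ifi208 and Ifi213, which share closely similar promoters and first residues, had values above 0, as did Ifi203, Ifi209 and Mndal. Ifi208, listed in RefSeq also as Pydc3, was at 36.6, 28.5 and 31.3 CPM in WT, against 37.7, 38.3 and 35.8 CPM in knockouts. WT replicate 1 lay among the knockout libraries, and the other WT libraries lay below all of them. All 3 knockout libraries lay above the WT mean, as they also did for Ifi203, Ifi209 and Ifi213. For those 3 the lowest knockout library was close to the WT mean (345 against 344, 298 against 294 and 105 against 103 CPM). The portion of all tested genes that lay so is not given, so this says nothing about the family. The log2 fold change of Ifi208 was 0.22 (SE 0.094, 95% confidence interval 0.020 to 0.41), with an unadjusted p of 0.033 and an adjusted p of 0.88 by edgeR. It was 0.32 without WT replicate 1 and 0.14 without WT replicate 2. Ifi213, also listed as Pydc4, was at 91.8, 98.6 and 119 CPM in WT, against 105, 110 and 124 CPM in knockouts (log2 fold change 0.13, SE 0.089, adjusted p 0.91 by edgeR). Leaving out WT replicate 1 gave 0.051, leaving out Top3b-KO replicate 3 gave 0.064, and leaving out WT replicate 3 gave 0.24. Ifi206 was at 66.7, 75.2 and 82.7 CPM in WT, against 71.0, 76.4 and 85.4 CPM in knockouts (log2 fold change 0.046, SE 0.086). In both genes the genotypes overlapped, with replicate 3 highest in each.

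**Figure D3:**
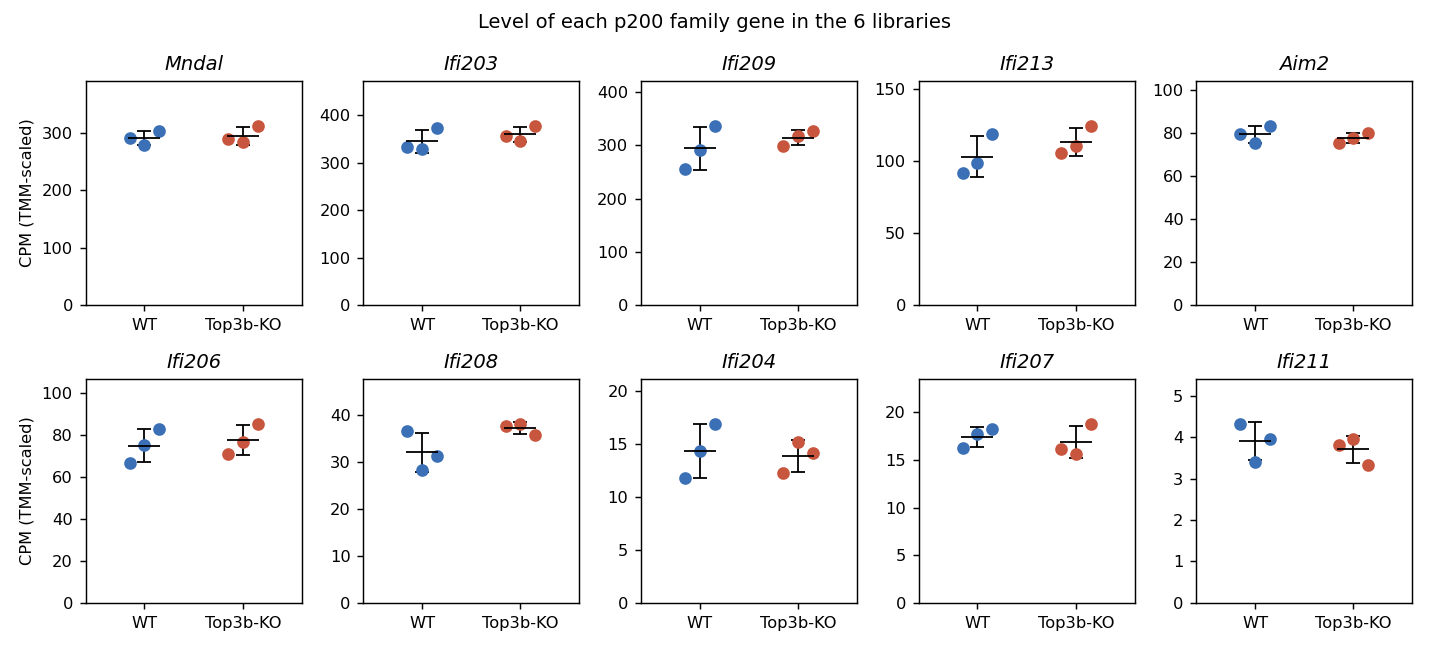
CPM of each member in every library, with the mean and SD of the 3 libraries of a genotype as bars and replicates 1 to 3 from left to right. Points of WT and Top3b-KO overlap in every panel. In the Ifi208 panel 2 WT libraries, at 28.5 and 31.3 CPM, lie below the knockout libraries.

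The precision limits what these libraries could show. Over the 10 members, 95% confidence intervals of the Top3b-KO to WT ratio reached down to 0.738, for Ifi211, and up to 1.33, for Ifi208. The interval of Mndal ran from 0.920 to 1.11 and that of Ifi203 from 0.943 to 1.15. Leaving out 1 library turned the direction of 5 members, none of which passed the test. Without WT replicate 1, Ifi206 was at -0.034, Ifi209 at -0.00064 and Ifi211 at 0.025 on the log2 scale. Mndal was at -0.013 without WT replicate 2 and at -0.024 without Top3b-KO replicate 3. Ifi206 was at -0.022 without Top3b-KO replicate 3, and Ifi204 was at 0.085 without WT replicate 3 and at 0.047 without Top3b-KO replicate 1. The members' median was -0.013 without Top3b-KO replicate 3. Without WT replicate 3 it was 0.10, and 3 of 10 members had an unadjusted p under 0.05, beside 13.2% of all genes tested in that setting. Of the members 0 passed there, beside 32 of all genes, with a lowest adjusted p of 0.15 by edgeR, for Ifi213.

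**Figure D4:**
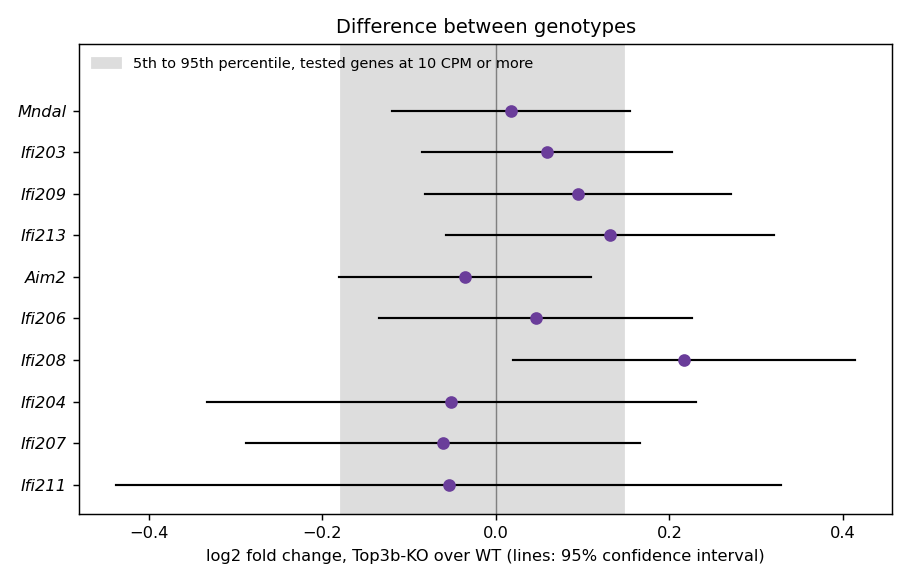
Log2 fold change of Top3b-KO over WT for each member (points) with its 95% confidence interval (lines), above the range from the 5th to the 95th percentile of 9669 tested genes at a mean of 10 CPM or more (grey, -0.18 to 0.15). The intervals of 9 members include 0, and that of Ifi208 runs from 0.020 to 0.41 before adjustment for the number of genes.

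Differences between libraries of the same genotype were shared across members. In WT replicate 3 and in Top3b-KO replicate 3, 9 of 10 members were above their own mean over the 6 libraries. The portion of all tested genes above their own mean there is not given, so the pattern may not be particular to the family. Median deviations on the log2 scale were 0.088 and 0.098 there, against -0.073 in WT replicate 1 and -0.065 in WT replicate 2. Top3b-KO replicate 3 was the highest library for 5 members and WT replicate 3 for 3. WT replicates 1 and 2 were each the lowest for 4. Ifi208 and Ifi211 departed from this pattern, since Ifi208 was low in WT replicate 3 (-0.14) and Ifi211 low in Top3b-KO replicate 3 (-0.18).

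Summing the 10 members sets aside any division of shared reads among them. It does not set aside reads shared with other genes or reads that were left out of the counts. The sum was 1187, 1209 and 1366 CPM in WT, against 1263, 1283 and 1377 CPM in knockouts, which is 1254 ± 97.5 and 1308 ± 60.8 CPM (SD, n = 3) and a ratio of 1.04. The genotypes overlapped, with replicate 3 highest in each. Summed monocyte markers (Ly6c2, Ccr2, Csf1r, Fcgr1 and Lyz2) were at 655, 729 and 738 CPM in WT, against 579, 717 and 821 CPM in knockouts, so they ranked the libraries of each genotype as the family sum did. Summed B cell markers did so too, from 2731 to 3266 CPM in WT and from 2902 to 3050 CPM in knockouts, and all 5 of 5 markers of each list were tested. These were 2 of 10 marker lists. The other 8 did not rank the libraries this way in both genotypes. T cell markers, for example, ran the opposite way in WT, at 773, 716 and 672 CPM, and red pulp macrophage markers did so in knockouts, at 425, 408 and 362 CPM. Outside the marker lists, Rigi and Eif2ak2, the 2 most abundant listed interferon-stimulated genes, ranked the libraries as the family sum did. Eif2ak2 was at 52.2, 65.8 and 74.1 CPM in WT, against 56.4, 66.2 and 72.1 CPM in knockouts. Rigi did so within 148.8 to 149.3 CPM in knockouts. Ifit3, Ifit3b, Mx1, Mx2, Oas3, Oasl2, Ifi27l2a, Rtp4 and Cmpk2 of that list did so too. The other tested genes of the list, Isg15, Ifit1 and Rsad2 among them, did not do so in both genotypes. The part of cell composition or of interferon signalling in the family's variation was not tested. Neutrophil markers were at 592 to 1047 CPM in WT and 419 to 1415 CPM in knockouts. They were highest in Top3b-KO replicate 3. Both dendritic cell lists lay lower in every knockout library, with plasmacytoid markers at 267 to 287 CPM in WT and 249 to 259 CPM in knockouts and conventional ones at 167 to 185 and 150 to 165 CPM. The other 8 lists overlapped between genotypes, and 5.63% of all tested genes lay wholly lower in knockouts. Of the plasmacytoid markers, Bst2 is also on the list of interferon-stimulated genes. None of the 4 plasmacytoid and 5 conventional markers passed the test, and the part of dendritic cells in the members' levels was not tested.

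**Figure D5:**
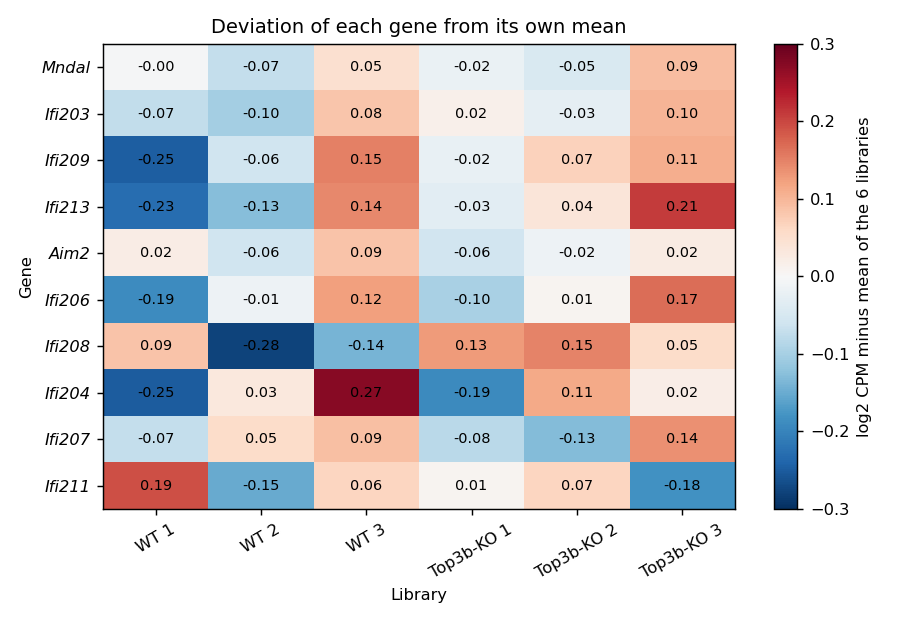
Log2 CPM of each member in each library minus its mean over the 6 libraries, with red above and blue below the mean. The columns of WT replicate 3 and Top3b-KO replicate 3 are red for 9 of 10 members, and the WT replicate 1 column is blue for 7.

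Family symbols outside the 10 were also close between genotypes or barely counted. Ifi214, next to Ifi213 and 93.6% identical to Ifi209 in protein, was at 61.2 ± 7.30 CPM in WT, against 64.3 ± 4.17 CPM in knockouts (SD, n = 3; log2 fold change 0.064, SE 0.086). Ifi205 was at 4.08 ± 0.287 and 3.39 ± 0.618 CPM (log2 fold change -0.23, SE 0.19). Ifi202b, which encodes a HIN protein without a pyrin domain that is known to counter Aim2, had 0 counts in 5 libraries and 1 count in Top3b-KO replicate 1. The 3 counts taken as a floor would correspond to between 0.119 and 0.303 CPM. Ifi202b expression is known to differ between mouse strains. The pseudogene Ifi203-ps had between 1 and 11 counts per library. The table has no rows named Pydc3, Pydc4, Pyhin1 or Mnda, which RefSeq lists as other names of Ifi208, Ifi213, Ifi209 and Ifi211.

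Partners through which p200 proteins act were then compared. Of 16 inflammasome genes, all tested, 0 were higher and 0 lower at the adjusted threshold of edgeR, and 0 had an unadjusted p under 0.05. Their median log2 fold change was -0.0038 beside -0.0029 over all tested genes. Their most abundant members were Casp8, a caspase of cell death pathways, at 147 ± 5.18 and 148 ± 0.757 CPM (log2 fold change 0.0057), and the cytokine Il1b at 81.7 ± 13.2 and 88.3 ± 22.7 CPM (0.11). For the arm from cytosolic DNA to Sting1, 17 of 18 genes were tested, 0 passed in either direction and 0 had an unadjusted p under 0.05. Its most abundant genes were Samhd1, which degrades deoxynucleotides, at 652 ± 46.9 and 682 ± 21.3 CPM, and Trim56 at 281 ± 5.26 and 296 ± 12.7 CPM. Their log2 fold changes were 0.066 and 0.076. The DNA exonuclease Trex1 is listed at 0 in every library.

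Interferon genes themselves were scarcely detected. Of 11 ligand genes, 2 were tested, Ifng at 3.19 ± 0.773 and 2.87 ± 1.08 CPM and Ifnk at 1.11 ± 0.282 and 1.02 ± 0.204 CPM. The other 9 ligand genes, Ifnb1 and the listed alpha interferons among them, are listed at 0 in every library. Among 18 receptor and signalling genes, all tested, 0 passed the adjusted threshold and 1 had an unadjusted p under 0.05, which was Irf8 (log2 fold change -0.15, adjusted p 0.88 by edgeR). The most abundant of them were the kinase Jak1 (1006 ± 23.6 and 1083 ± 9.81 CPM, log2 fold change 0.11) and the transcription factor Irf1 (log2 fold change -0.0016). Of 24 classical interferon-stimulated genes 23 were tested, 0 passed in either direction, 0 had an unadjusted p under 0.05, and the median log2 fold change was 0.012. The RNA sensor Rigi had a log2 fold change of 0.023 and the kinase gene Eif2ak2 of 0.012. Among 22 genes of chromosome 1 outside the family 16 were tested, 0 passed and 0 had an unadjusted p under 0.05. Copa, a coat protein gene of vesicle transport, had a log2 fold change of 0.043 and Dcaf8 of 0.029.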

How the data were processed

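Ribosomal-RNA-depleted total RNA of mouse splenocytes was sequenced in 3 WT and 3 Top3b-KO libraries. Values in the table that the authors deposited are expected counts for each symbol. Reads were aligned with STAR to mm39, per the submitters' processing notes. Which tool, annotation and strand setting served for counting is not stated in the sources used here. Values that were not whole within 1e-06 occurred for 72 symbols, no member among them, and all were rounded.

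Genes passing edgeR's filterByExpr were tested with the quasi-likelihood test (TMM, robust dispersion, genotype as the only term, two-sided, Benjamini-Hochberg over all tested genes, threshold 0.05) with R 4.3.3 and edgeR 4.0.16. Alternatives used limma 3.58.1 and DESeq2 1.42.0. An SE is the log2 fold change divided by the root of the F statistic. Where nothing says that libraries came from separate animals, p-values measure only the spread between these libraries. The test was tested on simulated data. Members, lists and tests were chosen with earlier results of these data known.

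Alternatives that sum Ifi203 and Mndal, add other p200 symbols or use coding transcripts were added after seeing the data. Named genes were all members, Top3b and, per related list, up to 4 genes past the threshold or otherwise the 2 most abundant. Ifi205, Ifi202b, Ifi203-ps, Trex1, Irf8, Isg15, Ifit1 and Rsad2 were chosen after their values were seen. So were Ifit3, Ifit3b, Mx1, Mx2, Oas3, Oasl2, Ifi27l2a, Rtp4 and Cmpk2. Transcripts came from GENCODE M21 and promoters from RefSeq, both on GRCm38, a build other than mm39. Protein identity came from global alignment with Biopython 1.88 (BLOSUM62, gap costs 11 and 1, free end gaps).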

Additional observations from a re-analysis of the deposited data

How the results depend on the processing

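Of the 10 members, 0 passed the adjusted threshold under each of 16 alternatives, and so did 0 genes of the related lists where these were recomputed. Member directions were kept under the other scalings, filters and tests and under the replicate block. Beside 2 genes in all, 44 passed when low counts were not filtered (no filter), 6 in DESeq2, 1 with limma-voom, 1 with robust=FALSE and 41 with the replicate block, and between 1 and 32 when a library was left out (32 without WT replicate 3, 9 without Top3b-KO replicate 1). The cause was not tested. Leaving out a library gave log2 fold changes of -0.18 to 0.085 for Ifi204, -0.034 to 0.12 for Ifi206, -0.00064 to 0.20 for Ifi209, -0.14 to 0.025 for Ifi211 and -0.024 to 0.050 for Mndal. Correlations of deviations were 0.18, -0.014 and 0.014 between libraries of the same number, and -0.099 to 0.093 between libraries of different number. The numbers were not taken to pair libraries, because the labels do not say that they do. With the block the lowest adjusted p of a member was 0.59 by edgeR. The family's log2 ratio of 0.060 was 0.13 without WT replicate 3, 0.035 without WT replicate 2, and 0.022 without WT replicate 1 or Top3b-KO replicate 3. The log2 family sum had an SD of 0.091 between libraries of a genotype, pooled over both genotypes. This SD describes single libraries and is not an error of the ratio. Including the other p200 symbols left the log2 ratio at 0.060. With windows of 150 bases the shared portion was 46.4% for Ifi211, 10.8% for Ifi204 and 10% for Ifi209. Depth limits mainly Ifi211 in Top3b-KO replicate 3, where 33 counts were recorded.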

Other observations

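The p200 cluster also holds pseudogenes, chosen here after the values were seen. Gm18752, Gm7871, Gm7897, Gm38050 and Gm18445 had between 0 and 9 counts in each library, and none was tested. Gm18752, which shares 100-base windows with Ifi206, had 5, 3 and 5 counts in WT and 5, 2 and 3 in Top3b-KO, beside at least 844 counts for Ifi206.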
